A study of Mus musculus with 6 samples.

Results

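Replication fork and helicase genes encode the machine that unwinds and copies DNA in S phase. The members were the 41 genes given by name, found by symbol among the 18288 genes of the deposited table, and all 41 were present and passed the filter on low values. They were described in 5 groups by role: 12 helicase genes, 6 genes of the sliding clamp and its loader, 11 genes of polymerases and lagging-strand processing, 7 genes of fork protection and 5 of chromatin assembly. The data came from RNA sequencing of mouse CD8+ T cells, the cytotoxic lymphocytes, activated in culture and collected on day 2. One group of 3 libraries was labelled Nae1T-KO and the other group of 3 Nae1WT. Strain, age, the allele, the promoter behind any Cre and the activating stimulus are not stated in the labels or notes used here. The titles call the replicates biological, without saying whether each was 1 animal or a pool, and both sexes occurred in each group, so a group drew on more than 1 animal. The question is how far the fork genes differ in transcript level in cells labelled as Nae1 knockouts.

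At a replication fork the MCM2-7 ring joins CDC45 and the GINS complex to form the helicase that opens the double strand. Polymerase alpha with primase lays down primers, the RFC loader places the ring-shaped PCNA clamp, and polymerases epsilon and delta extend the leading and lagging strands. Activated CD8+ T cells divide quickly, and these genes are known targets of E2F transcription factors, which act at the entry into S phase. NAE1 is a subunit of the enzyme that activates NEDD8, a ubiquitin-like protein that switches on cullin ubiquitin ligases. Several such ligases act at replication: one built on CUL4 degrades the licensing factor CDT1 on chromatin-bound PCNA, and one built on CUL2 with LRR1 takes part in unloading the helicase when replication ends.

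Nae1 itself was lower in each library labelled Nae1T-KO, with 338 to 390.3 normalized counts against 1601 to 1882 in Nae1WT. Recovered totals lay between 15628252 and 25444653 reads per library, and each member had 352 to 26789 reads in every library. CD8 T cell markers summed to 86340 to 112318 normalized counts in Nae1T-KO and 100905 to 112841 in Nae1WT, of which Gzmb made up 63.4% to 72.5%. The other 7 summed to 29014 to 31049 in Nae1T-KO and 34278 to 36928 in Nae1WT, without overlap. Of the 8 markers, 7 had negative log2 fold changes (median -0.15), and 2 were called lower: Cd3g, a T cell receptor chain (-0.51, limma adjusted p = 0.00365), and Thy1, a T cell surface protein (-0.43, adjusted p = 0.0102). Markers of other cell types were far lower, and 2 of these lists separated the groups. The 6 CD4 T cell markers summed to 526 to 906 in Nae1T-KO and 327 to 458 in Nae1WT, and the 7 myeloid markers to 124 to 191 against 61.7 to 86.0, with 5 of the 7 averaging under 10. The CD4 separation rested on Il13, a cytokine gene. Without it the other 5 CD4 markers summed to 237 to 338 and 167 to 255, which overlap, and Cd4 itself overlapped too. Cd40lg, like Il13, was higher without overlap, and all 6 CD4 markers had positive log2 fold changes (median 0.58), with 0 called. The 3 tested myeloid markers were positive as well (median 1.13). Of these Xcr1 was called higher (1.75, limma adjusted p = 0.0350), at 2.1 to 17.6 normalized counts. The deposited table held 7 of 10 listed myeloid markers, 3 of 6 NK or gamma-delta T cell markers and 7 of 8 B cell markers. No gene in it had fewer than 11 recovered reads over the libraries, so a marker without reads would be absent from it. Sums of B cell, erythroid and NK or gamma-delta T cell markers overlapped between groups, and the B cell and erythroid sums were highest in Nae1T-KO replicate 2 (547 and 2048). Log2 fold changes were positive for 4 of 6 tested B cell, 5 of 5 erythroid and 2 of 2 NK or gamma-delta T cell markers, with 0 called. The part of these markers in the results was not tested. In bulk samples, fewer cells in S phase and less RNA per cell cannot be told apart.

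Most fork genes had slightly lower values in Nae1T-KO, and few of these differences were large. Of the 41 members, 8 fell, 1 rose and 32 did not pass the test (limma, Benjamini-Hochberg adjusted p under 0.05 over all 13819 tested genes). Among all tested genes 6.18% were called lower and 6.53% higher. The genes that fell were Rfc4, Pola1, Mcm5, Mcm2, Pcna, Prim2, Timeless and Rfc5, and the gene that rose was Pold2. The members' median log2 fold change was -0.16, against -0.01 for all tested genes, and 38 of 41 had a negative value, as did 51.0% of all tested genes. With total-count scaling 36 members had a negative value, and that scaling raised the median log2 fold change of all tested genes by 0.05. In 25 members every Nae1T-KO library lay below every Nae1WT library, and in 2 members every one lay above, where the groups failed to overlap in this way for 17.0% and 16.7% of all tested genes. Of the 32 members that did not pass, the 95% interval of the log2 fold change lay below 0 for 16, above 0 for 1 and included 0 for 15. Leaving out 1 library moved the number of members that fell. It became 5 when Nae1T-KO replicate 2 was left out, with 3.81% of all tested genes called lower. It was 4 when Nae1WT replicate 2 was left out (2.75% of all) and 4 when Nae1WT replicate 3 was (2.87%). Leaving out Nae1T-KO replicate 3 gave 12 (6.25%). With sex as a covariate it was 5 (5.56%), and with DESeq2 on the recovered reads 14 (7.32%).

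**Figure D1:**
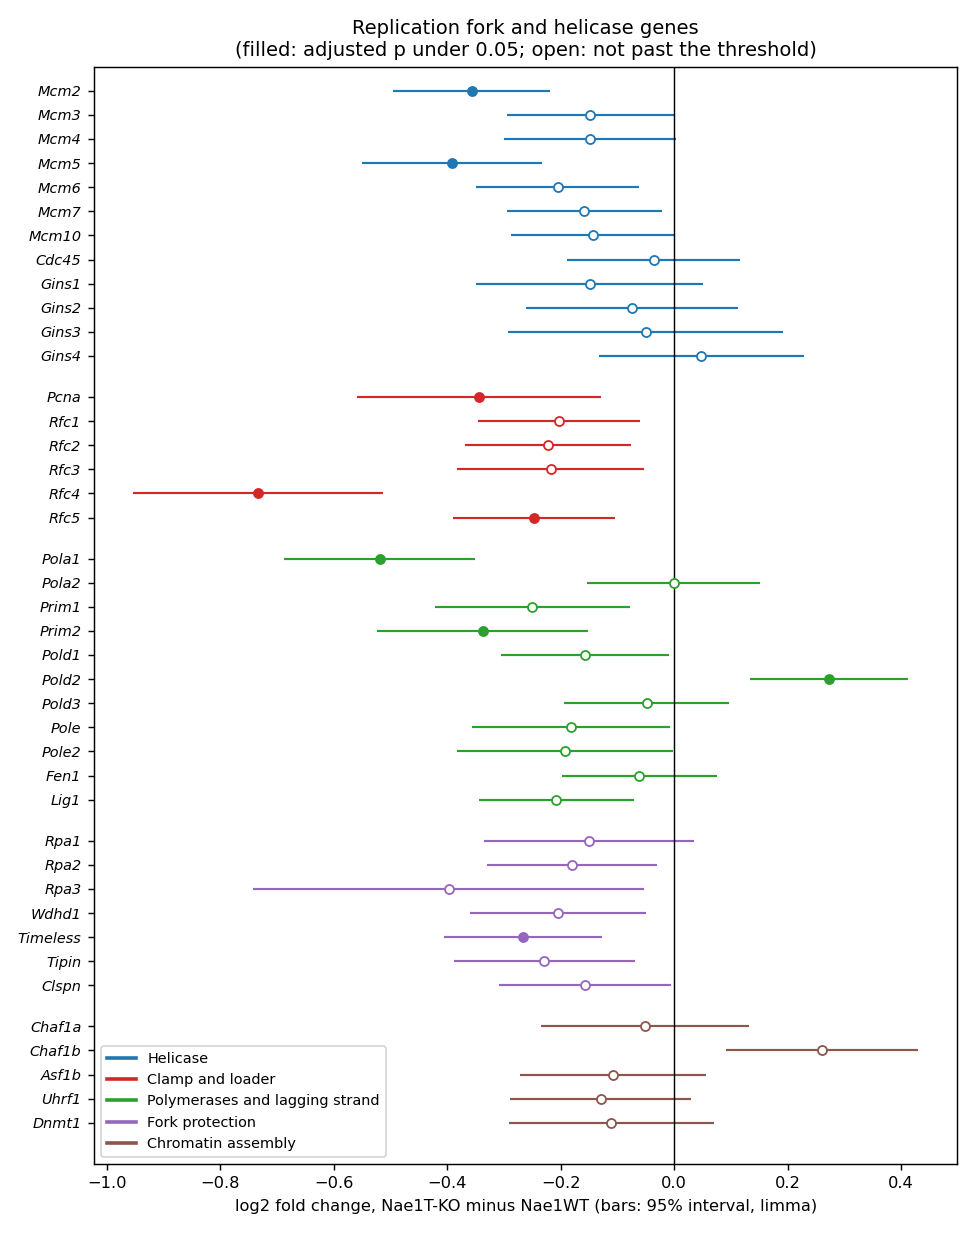
Log2 fold change of each of the 41 members (x axis, Nae1T-KO minus Nae1WT, with the 95% interval from limma), grouped by role. Filled points passed the test: 8 lie below 0, with Rfc4 farthest at -0.73, and Pold2 lies above 0 at 0.27.

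Promoter sequences are shown because these genes are grouped in textbooks by E2F binding sites, and because the called members Mcm5 and Pola1 were the 2 with such a match. The RefSeq table of GRCm38.p6 held promoter windows, 250 bases before to 50 after a start, for 33 of the 41 members. Each window was searched on both strands for the octamers TTTCCCGC, TTTGGCGC, TTTCGCGC and TTTGCCGC, which can overlap each other. Capitals mark the matches, and all stretches are written 5′ to 3′ on the strand of the gene. The Mcm5 stretch is chr8:75109316-75109407 (plus strand), ending before the annotated gene. The Pola1 stretch, chrX:93632275-93632304 (minus strand), is short because it lies within the annotated gene span. Mcm6 was added after its values were seen, as a subunit of the same ring that carries 3 matches and did not pass the test; its stretch is chr1:128359706-128359855 (minus strand).
Mcm5: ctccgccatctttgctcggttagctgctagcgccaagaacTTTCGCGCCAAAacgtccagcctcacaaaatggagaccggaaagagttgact
Pola1: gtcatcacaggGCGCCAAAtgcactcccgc
Mcm6: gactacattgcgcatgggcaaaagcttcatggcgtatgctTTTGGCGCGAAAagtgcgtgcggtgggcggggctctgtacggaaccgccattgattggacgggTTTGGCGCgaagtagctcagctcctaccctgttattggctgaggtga

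The Mcm5 match joins a forward octamer, starting 153 bases before the start, to an overlapping reverse one at 149. In Mcm6 the same arrangement begins at 110 and a further octamer lies at 47. Distances count from the start that defines each window. For Mcm5 that start lies within the annotated gene, which begins at 75109468, so its match lies nearer to the annotated gene start. At least 1 octamer was present in 14 of 33 members (42.4%), in 4.82% of 10057 tested genes with a promoter in the table and in 2.6% of all genes in it. By call, 2 of the 7 members that fell and had a promoter in the table held a match, as did 12 of the other 26. The promoters of Rfc4, Rfc5, Pcna, Mcm2 and Timeless held none of these letters in this window. The Timeless window, chr10:128237816-128238115 (plus strand), lies within the annotated gene, which starts at 128232063. The region before that annotated start was not searched. A CCAAT box (CCAAT, both strands) was found in 22 of 33 members (66.7%) and in 43.0% of tested genes.

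Within the helicase, transcripts of the MCM2-7 ring had lower values in every Nae1T-KO library, 2 of 6 past the test, and those of GINS and CDC45 overlapped between groups. Of all tested genes, 17.0% had every Nae1T-KO library below every Nae1WT library. Of 12 helicase genes 2 fell, 0 rose and 10 did not pass, beside 6.18% of all tested genes called lower. At an unadjusted p under 0.05 there were 5, where 29.1% of all tested genes had such a p. Mcm5, a subunit at the gate where the ring opens, had 8396, 7961 and 7258 normalized counts across the Nae1T-KO replicates, compared with 10395, 10018 and 10519 across the Nae1WT replicates. Every Nae1T-KO library was below every Nae1WT library, and the log2 fold change was -0.39 ± 0.07 (SE, limma adjusted p = 0.00710), so that the fitted level fell by 23.8%. Mcm5 lies on chromosome 8 from 75109468 to 75128439, 29.4 Mb from Nae1. Gins2, Gins3, Gins4 and Asf1b are on the same chromosome and did not pass.

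Mcm2, which forms the other side of that gate and also binds histones, had 5252, 5027 and 4903 normalized counts across the Nae1T-KO replicates, compared with 6514, 6330 and 6599 across the Nae1WT replicates. The groups were well apart, with a log2 fold change of -0.36 ± 0.06 (SE, limma adjusted p = 0.00552). The gene spans 88883474 to 88898780 on chromosome 6. Both calls held in 18 of 19 alternatives and ended only with the replicate block on 4 libraries, where adjusted p was 0.130 for Mcm5 (lowest over the alternatives 2.83e-05) and 0.145 for Mcm2 (lowest 1.67e-05).

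The other 4 ring subunits did not pass, although none of them overlapped between groups. Mcm6 had 9018, 8674 and 8539 normalized counts across the Nae1T-KO replicates, compared with 10488, 9710 and 10054, with log2 fold change -0.21, 95% interval -0.35 to -0.06 and adjusted p = 0.0628. For Mcm3, Mcm4 and Mcm7 the log2 fold change was between -0.16 and -0.15, with adjusted p from 0.120 to 0.178. Mcm10, which helps activate the assembled helicase, gave -0.14 (adjusted p = 0.176). Cdc45, the factor that joins the ring on activation, had a mean normalized count of 1865 ± 112 (SD, n = 3) under Nae1T-KO, compared with 1911 ± 26.5 (SD, n = 3) under Nae1WT. Its log2 fold change was -0.04, with a 95% interval of -0.19 to 0.12. The 4 GINS genes spanned -0.15 to 0.05, all with overlap between groups. Gins1, at -0.15, had the same log2 fold change as Mcm3 and Mcm4 to 2 decimals, with a larger SE (0.09 against 0.07). Gins3 had the lowest level per coding length among helicase genes, at 437, 353 and 445 normalized counts across the Nae1T-KO replicates, compared with 432, 437 and 404 across the Nae1WT replicates. Signs changed in at least 1 alternative for Cdc45, Gins3 and Gins4.

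**Figure D2:**
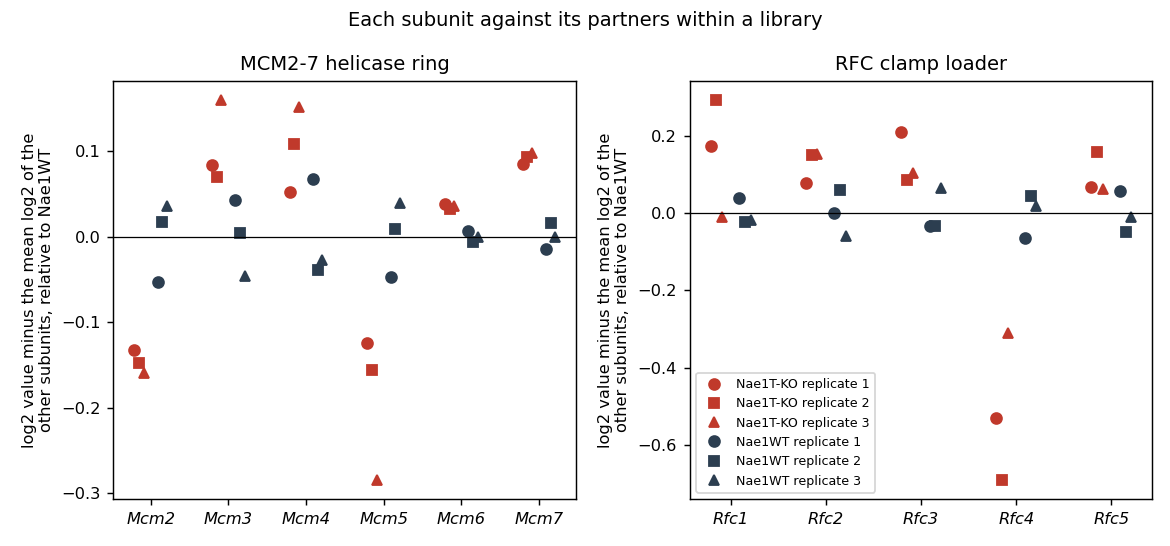
For each subunit and library, the log2 value minus the mean log2 value of the other subunits of its complex, set to 0 at the Nae1WT mean (y axis), for MCM2-7 (left) and RFC (right). Points are single libraries. Rfc4 lies at -0.69 to -0.31 in Nae1T-KO, and Mcm2 and Mcm5 are the MCM genes below 0 there.

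Subunits that work in a fixed ratio in the protein complex did not all differ by the same amount. Relative to the other 5 ring subunits in the same library, Mcm5 was lower by a mean log2 difference of -0.19 and Mcm2 by -0.15. Mcm3, Mcm4 and Mcm7 were relatively higher, by 0.09 to 0.10, and Mcm6 by 0.04. Mcm2 and Mcm5 enter the mean these 4 are set against, and the ratios of Mcm4 overlapped between groups. These ratios do not depend on scaling between libraries except through the pseudocount. They are descriptions of the same values and were given no test.

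All 6 clamp and loader genes had values without overlap, with the Nae1T-KO libraries lower, as held for 17.0% of all tested genes. Of these 6 genes, 3 fell, 0 rose and 3 did not pass, beside 6.18% of all tested genes called lower. Rfc4, a small subunit of the RFC loader, had 1382, 1190 and 1597 normalized counts across the Nae1T-KO replicates, compared with 2203, 2342 and 2343 across the Nae1WT replicates. The log2 fold change was -0.73 ± 0.10 (SE, limma adjusted p = 0.0016) and the fitted level fell by 39.9%. It was the lowest log2 fold change of the 41 members, and Rfc4 was the only member called in all 19 alternatives. Rfc4 lies on chromosome 16 from 23113948 to 23127730. Its end overlaps Eif4a2, a translation initiation gene on the opposite strand, over 194 exonic bases of GENCODE M21. Eif4a2 had a mean normalized count of 9194 ± 857 (SD, n = 3) under Nae1T-KO, compared with 9754 ± 293 (SD, n = 3) under Nae1WT (log2 fold change -0.09, adjusted p = 0.490). Whether reads were counted by strand is not stated in the labels, and the part of shared reads was not tested.

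Pcna encodes the sliding clamp, which also recruits many replication and repair proteins. It had 15498, 13536 and 16816 normalized counts across the Nae1T-KO replicates, compared with 17287, 20460 and 20396 across the Nae1WT replicates. The highest Nae1T-KO library, replicate 3, came close to the lowest Nae1WT library, replicate 1, without overlap, and the log2 fold change was -0.34 ± 0.10 (SE, limma adjusted p = 0.0424). Rfc5, another small loader subunit, had 1519, 1503 and 1550 across the Nae1T-KO replicates, compared with 1858, 1752 and 1817 across the Nae1WT replicates, which gives a log2 fold change of -0.25 ± 0.06 (SE, limma adjusted p = 0.0312). These 2 calls were close to the threshold: Pcna was called in 12 of 19 alternatives (adjusted p 0.00800 to 0.195) and Rfc5 in 10 (0.0202 to 0.342). Pcna lost its call without Nae1T-KO replicate 1 or 2 or Nae1WT replicate 2 or 3. Rfc5 lost it without any library but Nae1T-KO replicate 3, and with total-count scaling. Both genes also lost the call with sex as a covariate and under either replicate block.

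The remaining loader genes had log2 fold changes between -0.22 and -0.20. Rfc1, the large subunit, had 3034, 3048 and 2803 normalized counts across the Nae1T-KO replicates, compared with 3460, 3350 and 3409 across the Nae1WT replicates (adjusted p = 0.0646). Rfc2 gave adjusted p = 0.0515 and Rfc3 adjusted p = 0.0798. Against the other loader subunits of the same library Rfc4 was lower by a mean log2 difference of -0.51. For Rfc1, Rfc2, Rfc3 and Rfc5 the difference was 0.10 to 0.15. Rfc4 enters the mean they are set against, so these positive values are not separate results, and those of Rfc1 overlapped between groups.

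**Figure D3:**
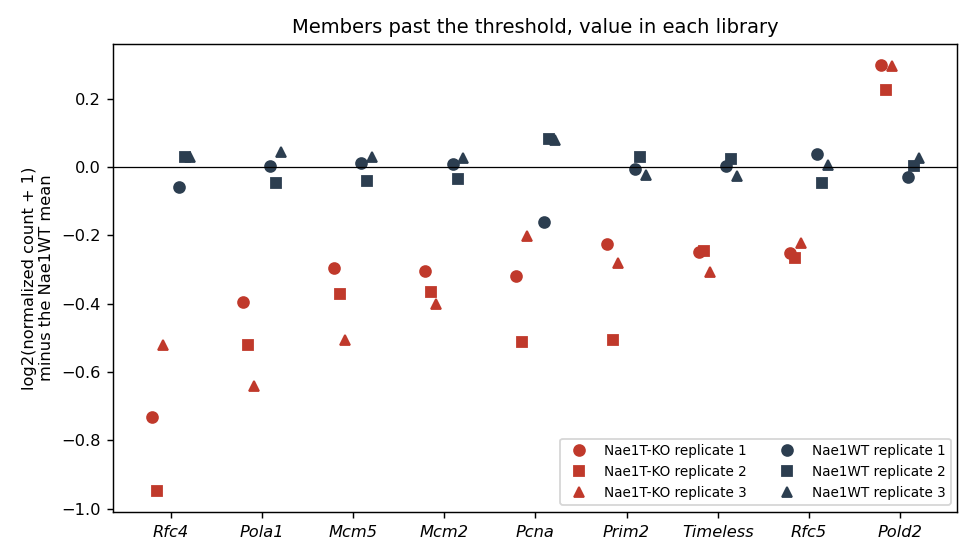
The 9 members past the threshold, ordered by log2 fold change (x axis), with log2(normalized count + 1) minus the Nae1WT mean (y axis) in each library. Red points are the 3 Nae1T-KO libraries and dark points the 3 Nae1WT libraries, and the groups do not overlap for any of the 9, with the smallest gap for Pcna.

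Among 11 polymerase and lagging-strand genes, 2 fell, 1 rose and 8 did not pass, beside 6.18% of all tested genes called lower and 6.53% higher. Pola1, the catalytic subunit of polymerase alpha, had 2153, 1971 and 1817 normalized counts across the Nae1T-KO replicates, compared with 2834, 2743 and 2917 across the Nae1WT replicates. The log2 fold change was -0.52 ± 0.08 (SE, limma adjusted p = 0.00229) and the fitted level fell by 30.2%. Of the alternatives, 18 of 19 called it. The gene is X-linked, from 93304766 to 93632387. Within each group its values were higher in the libraries with high Xist, and with sex as a covariate the log2 fold change was -0.56 (adjusted p = 0.00194, and 3.78e-07 to 0.0530 over the alternatives). Prim2, the large primase subunit, had 1146, 945 and 1104 across the Nae1T-KO replicates, compared with 1336, 1368 and 1320 across the Nae1WT replicates, which gives a log2 fold change of -0.34 ± 0.08 (SE, limma adjusted p = 0.0266). Prim2 was called in 12 of 19 alternatives and did not pass when Nae1T-KO replicate 2 was left out (-0.25, adjusted p = 0.0750, and 0.00995 to 0.274 over the alternatives) or when any Nae1WT replicate was. Its call was also lost with sex as a covariate and under either replicate block.

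The partners of these genes in the primer-making complex were not called. Prim1, the small primase subunit, gave -0.25 (95% interval -0.42 to -0.08, adjusted p = 0.0597). Pola2, the accessory subunit of polymerase alpha, had 2371, 2185 and 2145 normalized counts across the Nae1T-KO replicates, compared with 2284, 2140 and 2277 across the Nae1WT replicates. The groups overlapped, with a 95% interval of the log2 fold change of -0.15 to 0.15.

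Pold2, a small subunit of polymerase delta, was the member that rose. It had 2511, 2388 and 2505 normalized counts across the Nae1T-KO replicates, compared with 2001, 2047 and 2079 across the Nae1WT replicates, with a log2 fold change of 0.27 ± 0.06 (SE, limma adjusted p = 0.0191). The gene lies on chromosome 11 from 5872180 to 5878256, and 13 of 19 alternatives called it (adjusted p 0.00512 to 0.212). Pold2 did not pass when Nae1T-KO replicate 1 or any Nae1WT replicate was left out, nor under either replicate block. Pold1, the catalytic subunit, gave -0.16, which did not pass, and Pold3 -0.05 (adjusted p = 0.673). Pole, the catalytic subunit of polymerase epsilon and the polymerase gene with the lowest level per length, had 2576, 2546 and 2236 normalized counts across the Nae1T-KO replicates, compared with 2978, 2640 and 2726 across the Nae1WT replicates (-0.18, adjusted p = 0.156). Pole2 gave -0.19 (adjusted p = 0.167). The nuclease gene Fen1, which trims the flaps of Okazaki fragments, had 3370, 3294 and 3437 across the Nae1T-KO replicates, compared with 3410, 3588 and 3543 across the Nae1WT replicates, with overlap. Lig1, the ligase that seals them, gave -0.21 (adjusted p = 0.0509) without overlap between groups and was called in 4 of 19 alternatives.

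All 7 fork protection genes had negative log2 fold changes, and 1 of them fell, with 0 higher and 6 not past the threshold. Of all tested genes 51.0% had a negative value and 6.18% were called lower. Timeless, which with TIPIN holds the fork together and supports checkpoint signalling, had 1792, 1797 and 1722 normalized counts across the Nae1T-KO replicates, compared with 2135, 2164 and 2089 across the Nae1WT replicates. The log2 fold change was -0.27 ± 0.06 (SE, limma adjusted p = 0.0212). It lost its call without any single Nae1WT replicate, under either replicate block and with total-count scaling (-0.22, adjusted p = 0.0550, and 0.00783 to 0.222 over the alternatives). Its partner Tipin had 3269, 3002 and 3421 across the Nae1T-KO replicates, compared with 3639, 3977 and 3735 across the Nae1WT replicates, which gives a log2 fold change of -0.23 (adjusted p = 0.0622). Clspn, which encodes the checkpoint adaptor claspin, gave -0.16 (adjusted p = 0.158), with 1805, 1765 and 1708 against 2084, 1897 and 1909. Wdhd1, which links the helicase to polymerase alpha, gave -0.20 (adjusted p = 0.0798).

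RPA coats single-stranded DNA, and none of its 3 subunit genes was called. Rpa3 had the most negative log2 fold change of the fork protection genes, -0.40 with a 95% interval of -0.74 to -0.05 (adjusted p = 0.122). Its values were 1281, 1013 and 1205 across the Nae1T-KO replicates, compared with 1190, 1721 and 1747 across the Nae1WT replicates. Nae1WT replicate 1 lay within the Nae1T-KO range, and without it Rpa3 was called (-0.58, adjusted p = 0.0108, and 0.0108 to 0.317 over the alternatives). Rpa1 gave -0.15 and Rpa2 -0.18.

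Chromatin assembly genes were the group with no called member. In limma 0 of 5 passed, where 12.7% of all tested genes did in either direction. At an unadjusted p under 0.05 there was 1, where 29.1% of all tested genes had such a p. With 5 genes these counts do not set the group apart from all tested genes. DESeq2 and edgeR on the recovered reads each called Chaf1b. Chaf1b, a subunit of the CAF-1 histone chaperone, had 1085, 1021 and 1115 normalized counts across the Nae1T-KO replicates, compared with 888, 852 and 950 across the Nae1WT replicates. The groups did not overlap, and the log2 fold change was 0.26 ± 0.08 (SE, limma adjusted p = 0.0502), just outside the threshold, with 0.0292 to 0.246 over 19 alternatives, 7 of which called it. Chaf1a, the large CAF-1 subunit, gave -0.05 with a 95% interval of -0.23 to 0.13. Asf1b, which hands histones to CAF-1, gave -0.11. Uhrf1, which guides maintenance methylation, had 6848, 6346 and 5969 across the Nae1T-KO replicates, compared with 7244, 6658 and 7042 across the Nae1WT replicates, which gives a log2 fold change of -0.13. Dnmt1, the maintenance methyltransferase, also gave -0.11. All 4 of these overlapped between groups.

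**Figure D4:**
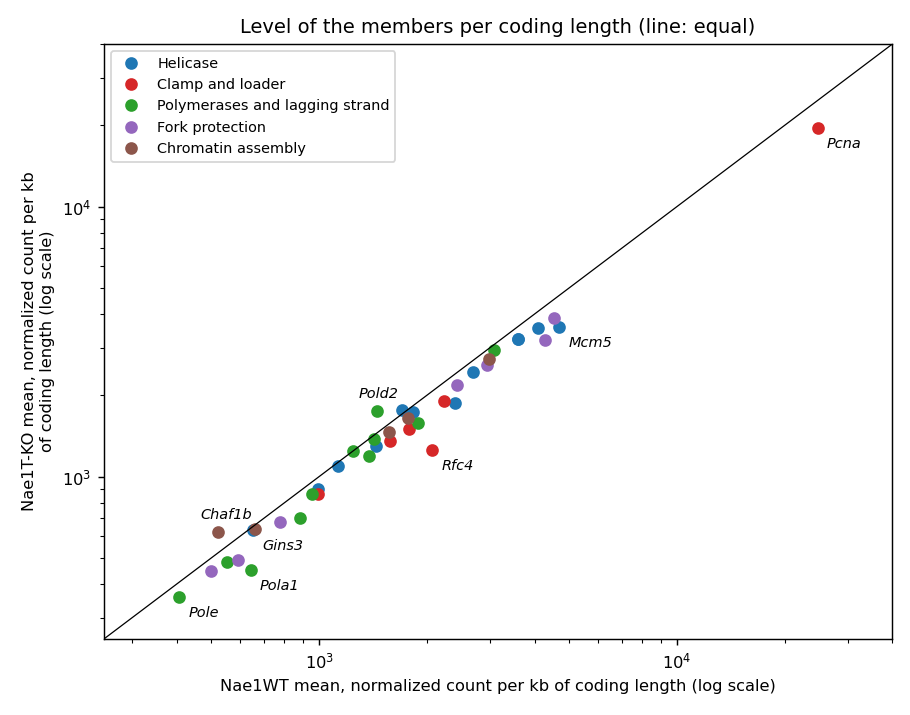
Mean normalized count per kb of coding length in Nae1T-KO (y axis) against Nae1WT (x axis) for the 41 members, both on log scales, with the line of equality. Pcna lies highest at 24752 in Nae1WT and 19519 in Nae1T-KO, and Pole is lowest at 406 and 358.

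Levels between genes were compared per kb of the longest coding sequence in GENCODE M21. In Nae1WT, Pcna had the highest mean level, 24752 normalized counts per kb, and the next was Mcm5 at 4682. Within the other groups Fen1 (3082), Tipin (4537) and Uhrf1 (2976) were highest, and Gins3 (655), Rfc1 (992), Pole (406), Clspn (498) and Chaf1b (523) were lowest in their own group. Per kb of all annotated exons, a scale added after seeing the data, Prim1 (1486) replaced Fen1, Rpa3 (2317) replaced Tipin, Rfc2 (467) replaced Rfc1 and Chaf1a (327) replaced Chaf1b. These levels rank genes only roughly, since the order changed between the scales. Variation between replicates was small for most members, with a median coefficient of variation of 5.65% in Nae1T-KO and 3.67% in Nae1WT. The widest were Rfc4 in Nae1T-KO at 14.7% and Rpa3 in Nae1WT at 20.2%.

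Genes that work beside the fork were followed as 5 further lists. Their counts stand beside 6.18% of all tested genes called lower and 6.53% called higher. In the list of origin licensing and firing, 4 of 17 fell, 1 rose and 12 did not pass (median log2 fold change -0.14). Mcm8 and Mcm9 form a helicase used in recombination repair, and they differed in opposite directions. Mcm8 had 526, 469 and 533 normalized counts across the Nae1T-KO replicates, compared with 770, 797 and 799 across the Nae1WT replicates, which gives a log2 fold change of -0.63 ± 0.08 (SE, limma adjusted p = 0.00151). Mcm9 had 421, 452 and 436 against 360, 340 and 323, a log2 fold change of 0.36 ± 0.09 (SE, limma adjusted p = 0.0316). Mcm9 and Orc6 were named after their values were seen. Orc3, Orc5 and Orc6, of the origin recognition complex, had log2 fold changes of -0.43, -0.50 and -0.34. Among 20 other fork genes 2 fell (10%), 1 rose (5%) and 17 did not pass, near the shares of all tested genes, with a median of -0.05. They included Atad5, which unloads PCNA, at -0.39, the ribonuclease H2 subunit gene Rnaseh2b at -0.36 and the fork factor gene Donson at 0.32.

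Cullin ligase and unloading genes had 4 of 13 lower, 1 higher and 8 not past the threshold (median -0.07). Lrr1, the CUL2 receptor for the finished helicase, had 371, 340 and 342 normalized counts across the Nae1T-KO replicates, compared with 399, 489 and 497 across the Nae1WT replicates (-0.39, adjusted p = 0.0421). Dtl, the CUL4 receptor that acts on CDT1, had 2017, 1928 and 1847 across the Nae1T-KO replicates, compared with 2506, 2409.5 and 2431 across the Nae1WT replicates (-0.34, adjusted p = 0.00841). Usp1, which removes ubiquitin from PCNA, had -0.31. The remaining calls, named after their values were seen, were Rad18, which adds that ubiquitin, at -0.29 and Vcp, which extracts the ubiquitylated helicase, at 0.25. The genes of deoxynucleotide supply had a median log2 fold change of -0.17, and Tk1, the thymidine salvage kinase, fell (-0.36, limma adjusted p = 0.0154). In the mitosis list 14 of 18 values were positive, with 0 of 18 lower, 3 higher and 15 not past the threshold (median 0.10). Kif23 had 0.38, Plk1 0.34 and Cdc20 0.27 (log2 fold changes). Nae1T-KO replicate 1 had the highest mitosis median of the 6 libraries, 0.21 above the Nae1WT mean. The other 2 Nae1T-KO libraries had 0.04 and 0.02 and the Nae1WT libraries 0.05, -0.01 and -0.02, so that the groups overlapped.

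**Figure D5:**
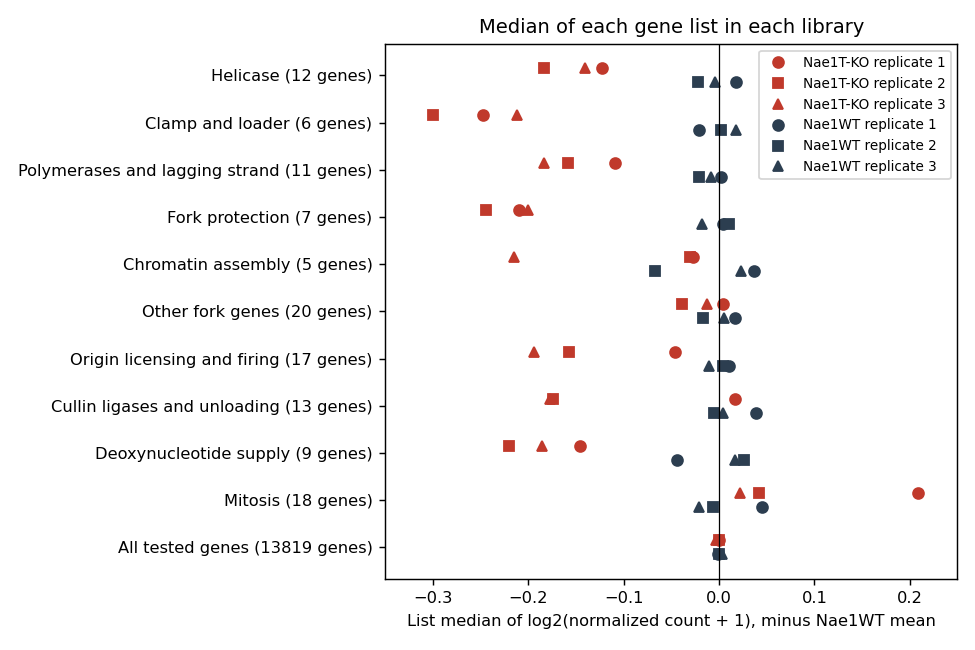
Median over each gene list of log2(normalized count + 1) minus the Nae1WT mean (x axis) in each of the 6 libraries, for the 5 groups of members, 5 lists of neighbouring pathways and all tested genes. The Nae1T-KO medians of the helicase, clamp and loader, polymerase and fork protection groups all lie between -0.30 and -0.11, below all Nae1WT medians, while those of chromatin assembly overlap.

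The medians by library had the same order in 4 of the 5 groups of members. In the helicase group they were -0.12, -0.18 and -0.14 in the Nae1T-KO libraries and between -0.02 and 0.02 in the Nae1WT libraries. Clamp and loader genes had -0.25, -0.30 and -0.21, and fork protection genes -0.21, -0.24 and -0.20. Chromatin assembly genes had -0.03, -0.03 and -0.21 in Nae1T-KO and -0.07 to 0.04 in Nae1WT, so that these ranges overlapped.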

How the data were processed

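For the 6 libraries the deposited values are normalized counts per gene (unit: signal); bcl2fastq, HISAT2, DESeq2 1.42.0 and build mm10 are named per the submitters' processing notes, and the read counter and its use of strand are not named there. Within a library all values were multiples of 1 step (tolerance 0.001 of a read, 100% of values), so reads were recovered. In Nae1T-KO replicate 3 the step is near 1 (1.01), which makes its recovery less certain by this check alone. As in every library, the step matched the inverse DESeq2 size factor of the recovered reads (1.01 there). Genes with a normalized count of at least 10 in at least 3 libraries (13819) entered limma 3.58.1 as log2(normalized count + 1) (R 4.3.3, trend and robust variance, group only, two-sided). Fold changes on this scale understate low genes. Alternatives were other scalings, filters, pseudocounts and tests (edgeR 4.0.16, DESeq2 1.42.0, limma-voom on recovered reads), leaving out each library, replicate blocks, and sex read from Xist and Y-linked genes. Members and lists were chosen with earlier results of these data known. Values by library are given for called members, the largest change and the highest and lowest level per coding length in each group of members; of each other list the 3 called genes with the largest change are named, and Mcm9, Orc6, Rad18 and Vcp were added after their values were seen. Coordinates and promoters are from RefSeq, GRCm38.p6, where 41 members matched for coordinates and 33 for promoters. Of the members, 17 share their span with another measured gene. No protein sequences were used here. One result from the list of deoxynucleotide supply is not reported here.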

Additional observations from a re-analysis of the deposited data

How the results depend on the processing

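Over 19 alternatives the members' median log2 fold change stayed negative, at -0.11 with total-count scaling and -0.19 to -0.16 when single libraries were left out. Total-count scaling also raised the median log2 fold change of all tested genes, by 0.05. Leaving out single libraries gave 842 to 1767 called genes against 1757, 4 to 12 members lower against 8, and 0 to 1 higher against 1. Upper-quartile, total-count and TMM scaling, the stricter filter, a pseudocount of 5, edgeR and DESeq2 each called 2 members higher, adding Chaf1b, and DESeq2 called 14 lower. With sex as a covariate 5 were lower. Total-count scaling called 1176 genes higher and 621 lower, against 903 and 854. Whether replicate numbers pair the samples could not be told. Deviations of same-numbered libraries had correlations of -0.27 to -0.13 over genes, each below the highest correlation with a library of another number. The libraries of every same-numbered pair differed in sex, so this check cannot separate pairing from sex. The replicate block by title number called 968 genes, 4 members lower and 0 higher, and the block on the 4 libraries with shared library numbers called 314, 1 and 0. Of the members not called, 8 passed in at least 1 alternative and 24 in none, and the sign changed in at least 1 for 5. The cause of lost calls was not tested.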

Other observations

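Sex differed between the libraries: Xist was high in Nae1WT replicate 3 and in replicates 1 and 2 of Nae1T-KO, and Y-linked genes were read in the other 3. Between libraries of the same sex, of which there are 4 pairs that share libraries, the members' median log2 difference was -0.22 to -0.12. The difference was below 0 in all 4 pairs for 29 members and above 0 in all 4 for Pold2 and Chaf1b, the 2 members of which this held. Of all tested genes, 23.4% were below 0 and 23.0% above 0 in all 4. Rfc4 spanned -0.98 to -0.46, Pola1 -0.64 to -0.44, Mcm5 -0.52 to -0.33 and Mcm2 -0.41 to -0.33. Pcna spanned -0.59 to -0.04. Uba3, the partner subunit of NAE1, differed by 0.02 (95% interval -0.15 to 0.20) between the groups.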
